A study of Mus musculus with 3 samples.

Results

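Car6-high nuclei of the mouse lacrimal gland were selected by transcript alone. A member had at least 500 UMIs (unique molecular identifiers, the counted transcripts), at least 300 detected genes, at most 5% mitochondrial UMIs, and at least 5 Car6 UMIs making up at least 0.3% of its UMIs. The salivary gland transcripts Bpifa2, Smr3a, Amy1 and Cst10 had to sum to less than 0.5%. The rule took 2378 of the 29220 barcodes that passed the quality limits, out of 29599 deposited. The study profiled gland nuclei by droplet 3′ sequencing in 3 libraries, with 1 library per group. The tamsulosin library came from dry eye mice made with scopolamine and dry stress and given tamsulosin, a blocker of alpha-1 adrenergic receptors. The scopolamine library came from mice of the same model without that drug; scopolamine blocks muscarinic receptors. The control library came from healthy mice. Strain, sex, age, dose, duration and the number of mice per library are not given in the sources used here, and the labels' protocol speaks of a sort of fluorescent nuclei without saying whether these libraries went through it. With 1 library per group there is no replicate error and no test between groups: all intervals are 95% intervals that cover counting error only, and each difference is between libraries.

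Lacrimal acini secrete water, ions and tear proteins when muscarinic and adrenergic receptors release calcium from internal stores. Car6 encodes carbonic anhydrase VI, the secreted member of the enzyme family that interconverts carbon dioxide and bicarbonate, and is known from saliva and tears. Kit encodes the receptor tyrosine kinase for stem cell factor (Kitl), and is known in the salivary gland as a mark of epithelial progenitors as well as of mast cells and melanocytes elsewhere. Mup4 belongs to the lipocalins, small secreted proteins that carry odorants and other lipophilic molecules.

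Members made up 9.73% (9.20 to 10.3) of the kept barcodes in tamsulosin (1169 of 12020), 6.67% (6.18 to 7.17) in scopolamine (667 of 10006) and 7.53% (6.93 to 8.17) in control (542 of 7194). The tamsulosin share was the highest and the scopolamine share the lowest, and the order depends on the rule. When Car6 had to reach 0.6% of UMIs, the shares were 4.23, 3.95 and 4.16% in the same order of libraries. When a Kit UMI was also required, they were 3.95, 3.11 and 5.00%, with control highest. With Car6 at 10 times the level of macrophage-type barcodes, described below, they were 5.35, 6.86 and 6.53%, with scopolamine highest and tamsulosin lowest. The shares therefore give no order of the libraries that holds across rules. The members held 3696798 UMIs in tamsulosin, 1780113 in scopolamine and 1678309 in control, with medians per nucleus of 2310, 1849 and 2505. Below 1667 UMIs the minimum of 5 Car6 UMIs asks for more than 0.3%, which concerned 15.6% of tamsulosin members, 43.0% of scopolamine members and 9.41% of control members. Of the deposited barcode sequences, 35 were shared by tamsulosin and scopolamine, 30 by tamsulosin and control and 22 by scopolamine and control; among members, 1 barcode was shared, between tamsulosin and control.

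The libraries differed in the quality of these nuclei. After thinning each nucleus to 1000 UMIs, members had a median of 387 detected genes in tamsulosin, 532 in scopolamine and 681 in control, against 602, 610 and 693 in the comparison nuclei described next. Mitochondrial UMIs had medians of 0.875, 0.293 and 0.121% in members. The abundant secretory transcripts Mucl2, Scgb2b2 and Scgb1b2 together took 27.3, 23.0 and 5.65% of member UMIs. In macrophage-type barcodes, which carry at least 3 of 7 macrophage markers and should lack these transcripts, they took 10.1, 5.30 and 2.23%. These transcripts were therefore present in macrophage-type barcodes of every library, and their level there moves with the library contrasts below. Whether free RNA or doublets (barcodes that mix nuclei) carried them was not tested. Their part in the contrasts was not tested either.

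Members were set against Chrm3-high Car6-low nuclei, chosen by a rule of the same kind: at least 3 UMIs and 0.2% of Chrm3, the muscarinic M3 receptor of acinar cells, with Car6 below 0.1%. The same quality limits and the salivary limit of 0.5% applied. There were 4043 such nuclei in tamsulosin, 4181 in scopolamine and 4585 in control. Of the macrophage-type barcodes, 38 of 205 in tamsulosin, 59 of 190 in scopolamine and 78 of 134 in control also met this rule. The rule therefore does not pick acinar cells alone. Levels are given as CPM, UMIs scaled to an equal total, over the summed nuclei of a population and library. The labelling genes Car6, Kit, Zfp385b, Lama1, Mup4 and Nrg1 were proposed from these same data, so their values describe the nuclei and test nothing. Car6 (chr4:150187015-150201332, mm10, minus strand) stood at 9074, 8936 and 7055 CPM in tamsulosin, scopolamine and control members, as the rule required, against 344, 207 and 245 CPM in Chrm3-high Car6-low nuclei and 498, 285 and 375 CPM in macrophage-type barcodes. Mup4 (chr4:59956804-59960710, minus strand) stood at 6097, 4560 and 1855 CPM in members, against 282, 119 and 85.9 CPM in Chrm3-high Car6-low nuclei, a ratio of 21.6 (21.1 to 22.2), 38.2 (36.6 to 40.0) and 21.6 (20.5 to 22.8). Every library thus showed a Mup4 level more than 20-fold above the comparison nuclei. After thinning, a Mup4 UMI was found in 80.9, 70.3 and 55.2% of members, against 28.5, 16.6 and 11.2% of Chrm3-high Car6-low nuclei and 40.5, 16.9 and 8.21% of macrophage-type barcodes.

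Kit (chr5:75574916-75656722, plus strand) stood at 335 CPM (317 to 354) in tamsulosin members, 504 (472 to 539) in scopolamine members and 837 (793 to 881) in control members. Chrm3-high Car6-low nuclei held 114, 36.2 and 39.4 CPM of Kit, and macrophage-type barcodes 90.3, 55.7 and 56.4 CPM. The member to comparison ratio was 2.95 (2.76 to 3.15) in tamsulosin, 13.9 (12.7 to 15.4) in scopolamine and 21.2 (19.6 to 23.0) in control, so Kit marked members in all libraries and least sharply in tamsulosin. After thinning, a Kit UMI was seen in 22.8, 33.4 and 46.7% of members, against 10.2, 4.29 and 4.58% of Chrm3-high Car6-low nuclei and 5.37, 5.29 and 3.73% of macrophage-type barcodes. Zfp385b, a zinc finger protein gene, was at 43.6, 80.3 and 103 CPM in members, against 5.61, 10.1 and 10.6 CPM. Nrg1, a ligand of the ERBB receptors, was at 245, 280 and 246 CPM in members, against 75.2, 82.8 and 71.0 CPM. In CPM its member level was the most even of the 6 markers across libraries, but relative to the median gene it was past 2-fold higher in tamsulosin over control, with a log2 ratio of 1.07. Lama1, the alpha-1 chain of the basement membrane protein laminin, was at 18.4, 19.1 and 80.4 CPM in members, against 6.52, 15 and 10.3 CPM. Its ratio was 2.82 (2.10 to 3.76) in tamsulosin and 7.77 (6.27 to 9.60) in control, but in scopolamine the interval of the ratio of 1.28 (0.869 to 1.82) includes 1, so a higher Lama1 level was not detectable in that library.

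Markers of other Kit-expressing cells were near 0. The 6 mast cell markers summed to 1.08, 1.12 and 0.596 CPM in tamsulosin, scopolamine and control members, with 4, 4 and 5 of them at 0, among them Tpsb2 and Hdc in each library. The 5 melanocyte markers summed to 0.812, 0.562 and 1.19 CPM, with Tyr, Mlana and Tyrp1 at 0 in each library. The 10 acinar markers were detected in every library, and Chrm3 itself stood at 1474, 2358 and 3650 CPM in members, against 2737, 3902 and 3350 CPM in macrophage-type barcodes. Chrm3 in members therefore lay below the level in macrophage-type barcodes in tamsulosin and scopolamine and near it in control. The acinar markers summed to 141074, 120865 and 37379 CPM in members, against 55040, 32007 and 17548 CPM in macrophage-type barcodes. Their source in macrophage-type barcodes was not tested. Mucl2 alone was at 137966, 117193 and 32054 CPM in members, so these sums mostly reflect Mucl2. In control macrophage-type barcodes Mucl2 was at 12359 CPM. Because macrophage-type barcodes carry the same transcripts, the nuclei are called Car6-high here. Macrophage markers summed to 61.9, 53.9 and 99.5 CPM in members, against 1512, 1439 and 1234 CPM in macrophage-type barcodes, and duct markers to 818, 773 and 1123 CPM, against 1493, 1220 and 1284 CPM in Chrm3-high Car6-low nuclei.

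The promoters of Car6 and Mup4 are shown because both genes lie on chromosome 4 and had the highest ratios over Chrm3-high Car6-low nuclei in every library. The RefSeq windows (GRCm38.p6) run from 250 bases before to 50 bases after each start, at chr4:150201086-150201385 and chr4:59960618-59960917, and are printed 5′ to 3′ on the minus strand. Both strands were searched for an E-box, spelled CAGCTG, and for a core promoter element spelled TATAAA. Capitals mark the matches.
Car6: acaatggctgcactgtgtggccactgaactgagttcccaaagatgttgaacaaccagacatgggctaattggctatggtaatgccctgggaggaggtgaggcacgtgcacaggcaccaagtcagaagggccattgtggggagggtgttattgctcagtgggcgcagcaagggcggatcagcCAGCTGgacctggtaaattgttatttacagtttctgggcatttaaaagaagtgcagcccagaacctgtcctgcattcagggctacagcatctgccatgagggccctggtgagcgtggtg
Mup4: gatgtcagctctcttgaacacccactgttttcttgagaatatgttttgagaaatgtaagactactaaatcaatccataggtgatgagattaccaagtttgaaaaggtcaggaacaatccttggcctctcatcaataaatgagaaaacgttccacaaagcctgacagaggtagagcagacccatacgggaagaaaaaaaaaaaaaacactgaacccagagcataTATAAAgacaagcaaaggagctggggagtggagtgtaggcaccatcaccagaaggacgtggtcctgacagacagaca
Car6 held 1 CAGCTG beginning at position -69 and no TATAAA, and Mup4 held 1 TATAAA beginning at position -27 and no CAGCTG. Both RefSeq windows of Kit held neither. Of 32851 promoter windows, 13.6% held TATAAA and 16.3% held CAGCTG, so neither motif is rare. A match is a description of the letters in these windows only.

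**Figure D1:**
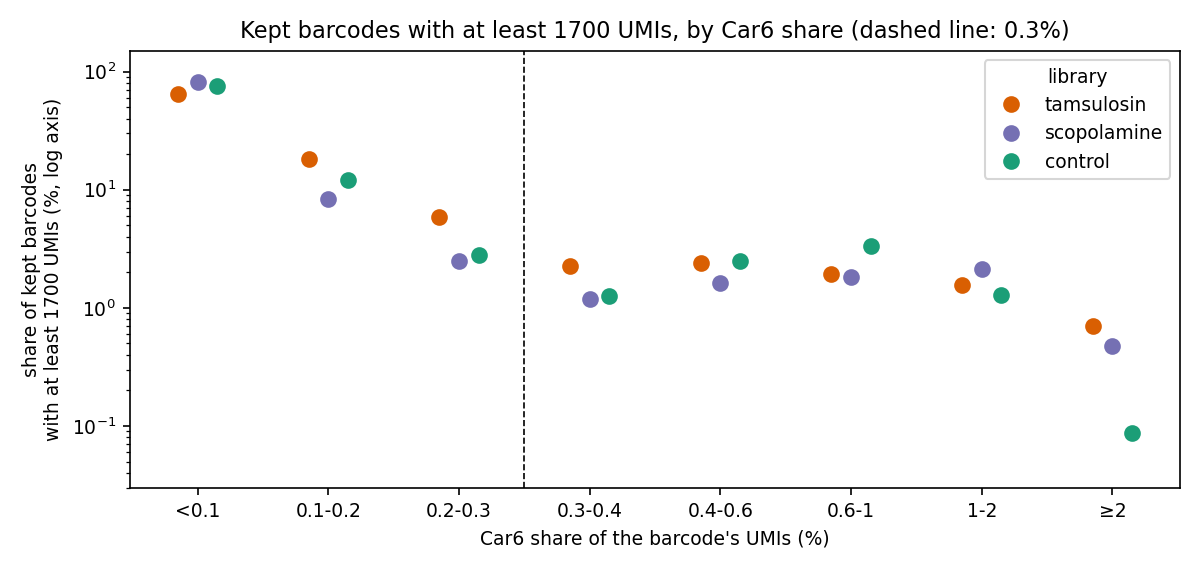
Share of kept barcodes with at least 1700 UMIs (y axis, percent, log scale) by the Car6 share of their UMIs (x axis, percent, bins of unequal width), 1 point per library. Barcodes became fewer up to the 0.3% limit in every library, and the wider bins above it do not separate the members from the rest by a gap.

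The Car6 share was a continuum without a gap at the limit. Among barcodes with at least 1700 UMIs, where 0.3% always means more than 5 Car6 UMIs, control held 160 just outside the limit (0.2 to 0.3%), 72 just inside it (0.3 to 0.4%), 141 at 0.4 to 0.6% and 190 at 0.6 to 1%. Scopolamine held 127, 61, 82 and 92 in the same bins, and tamsulosin 641, 246, 261 and 213. The last 2 bins are wider, and per unit of Car6 share each library held fewer barcodes as the share went up. Just outside the limit lay 5.87% of tamsulosin barcodes of this depth, 2.5% of scopolamine barcodes and 2.82% of control barcodes, so tamsulosin had the most barcodes near the limit. In scopolamine, 219 further barcodes reached 0.3% with fewer than 5 Car6 UMIs and were left out by the rule. Tamsulosin and control could hold no such barcode, since their lowest deposited totals were 1534 and 1492 UMIs.

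**Figure D2:**
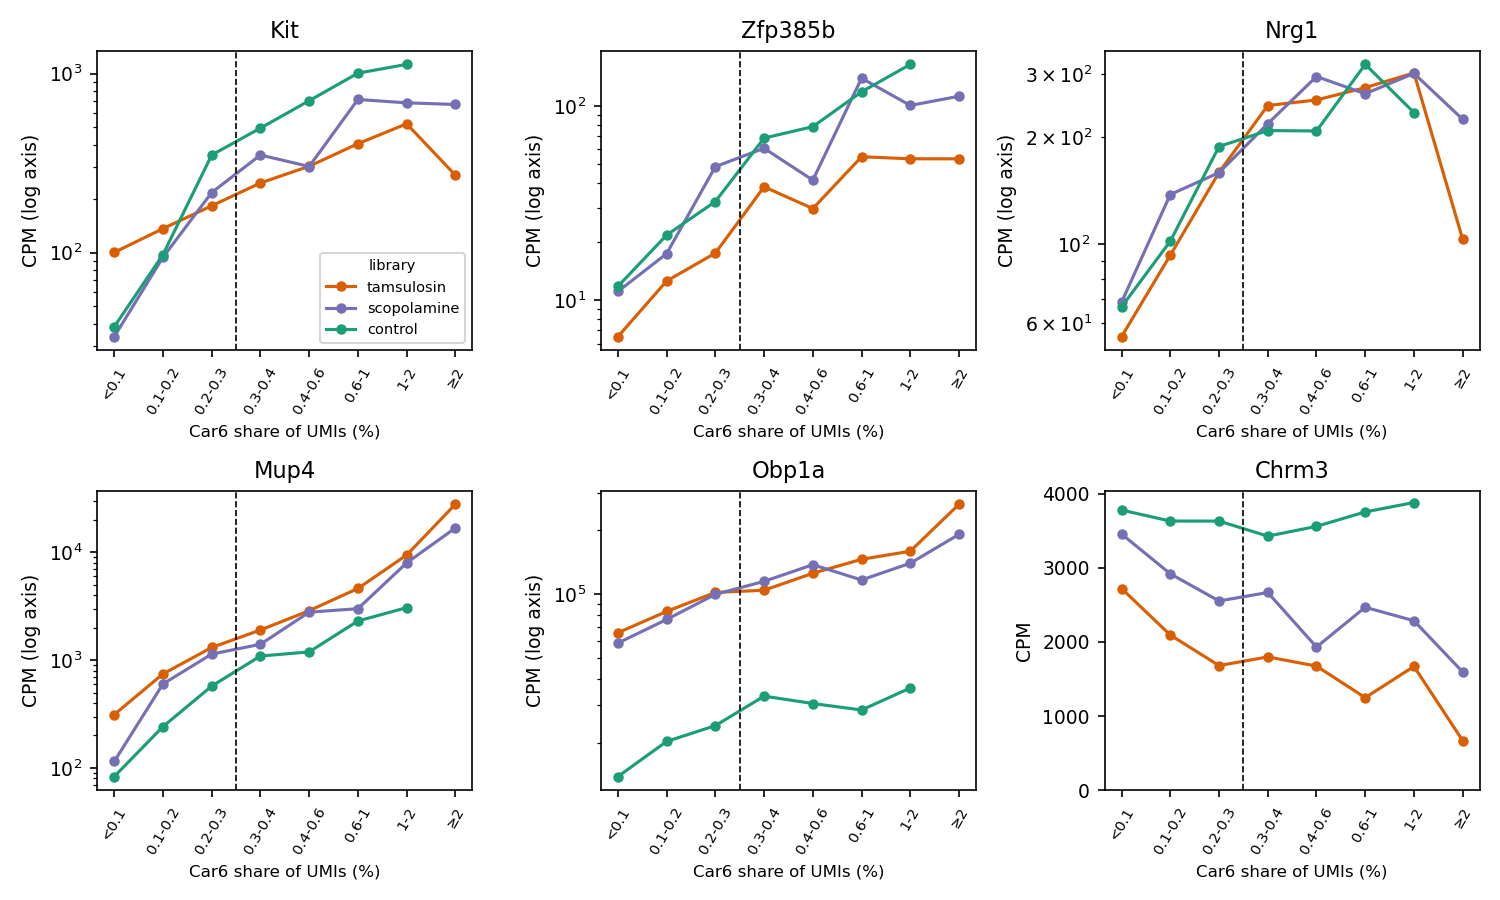
Level of 6 genes (y axes, CPM, log scale except for Chrm3) by Car6 share (x axis, percent) among barcodes with at least 1700 UMIs, 1 line per library; the dashed line marks the 0.3% limit, and the control point at 2% and above, with 5 nuclei, is not drawn. Mup4 is higher in each successive bin in every library, and Kit is higher at 1 to 2% than just inside the limit in every library.

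Along this continuum Mup4 was higher in each successive bin in every library, while Kit, Nrg1 and Lama1 did not go up in every bin. In scopolamine, Kit was at 351 CPM at 0.3 to 0.4%, 302 CPM at 0.4 to 0.6% and 716 CPM at 0.6 to 1%. Kit just outside and just inside the limit stood at 182 and 245 CPM in tamsulosin, 216 and 351 CPM in scopolamine and 351 and 495 CPM in control, so the limit cut a slope. At 1 to 2% Car6, Kit was at 524, 686 and 1125 CPM. Mup4 at 0.3 to 0.4% stood at 1902, 1402 and 1091 CPM, and at 1 to 2% it stood at 9434, 7971 and 3066 CPM. In control, Lama1 was 28.7 CPM at 0.3 to 0.4% and 132 CPM at 1 to 2%; the same bins held 14.8 and 28.4 CPM in tamsulosin and 16.1 and 22.3 CPM in scopolamine. In the 77 tamsulosin barcodes at 2% or more, Mup4 reached 27919 CPM while Kit was at 270 CPM, Nrg1 at 103 CPM and Chrm3 at 669 CPM. They had 265 detected genes at 1000 UMIs, against 424 at 0.6 to 1%. Those barcodes held fewer kinds of transcript than the other members, and the part of this in the Kit level was not tested.

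Within members, the Spearman correlation of the Car6 and Mup4 shares was 0.51 in tamsulosin (1169 nuclei), 0.51 in scopolamine (667) and 0.32 in control (542). For Car6 and Dnase1, which encodes a secreted endonuclease, it was 0.51, 0.54 and 0.29. For Car6 and the mucin-like Mucl2 it was -0.18, -0.14 and -0.10. These are descriptions over nuclei that share a library and any free RNA in it, and shares of the same total push each other down. A UMI of at least 1 of Kit, Zfp385b, Lama1 and Nrg1 was present after thinning in 34.9, 46.0 and 62.4% of members, against 15.9, 12.7 and 12.5% of Chrm3-high Car6-low nuclei, and UMIs of at least 2 of these 4 genes in 8.30, 14.1 and 20.7%, against 1.16, 1.49 and 1.00%.

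As deposited, 475 of 1169 tamsulosin members had a Kit UMI (40.6%), 311 of 667 scopolamine members (46.6%) and 360 of 542 control members (66.4%). Ndst4, which modifies heparan sulfate, was higher in Kit-positive than in Kit-negative members by 2.66-fold (2 to 3.57) in tamsulosin, 1.87-fold (1.39 to 2.53) in scopolamine and 1.76-fold (1.26 to 2.52) in control. Nrg1 was higher in them by 1.80-fold (1.57 to 2.07), 2.33-fold (1.93 to 2.83) and 1.48-fold (1.18 to 1.87), and Zfp385b by 2.37-fold (1.69 to 3.37), 3.19-fold (2.18 to 4.78) and 1.52-fold (1.07 to 2.22). Mucl2 was lower in Kit-positive members, with ratios of 0.901, 0.556 and 0.550. Car6 itself was also higher in Kit-positive members, by 1.23-fold (1.20 to 1.25), 1.19-fold (1.16 to 1.23) and 1.18-fold (1.13 to 1.23). Chrm3 was higher in Kit-positive members with ratios of 1.22, 1.82 and 1.11, and the nuclear RNA Malat1 with ratios of 1.23, 1.72 and 1.14, so in scopolamine these were about as large as the ratio of Ndst4. Kit-positive members were deeper, with median UMIs of 2772, 2159 and 2622.5, against 2080.5, 1568.5 and 2321 in Kit-negative members, and the part of depth and RNA composition in these ratios was not tested.

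**Figure D3:**
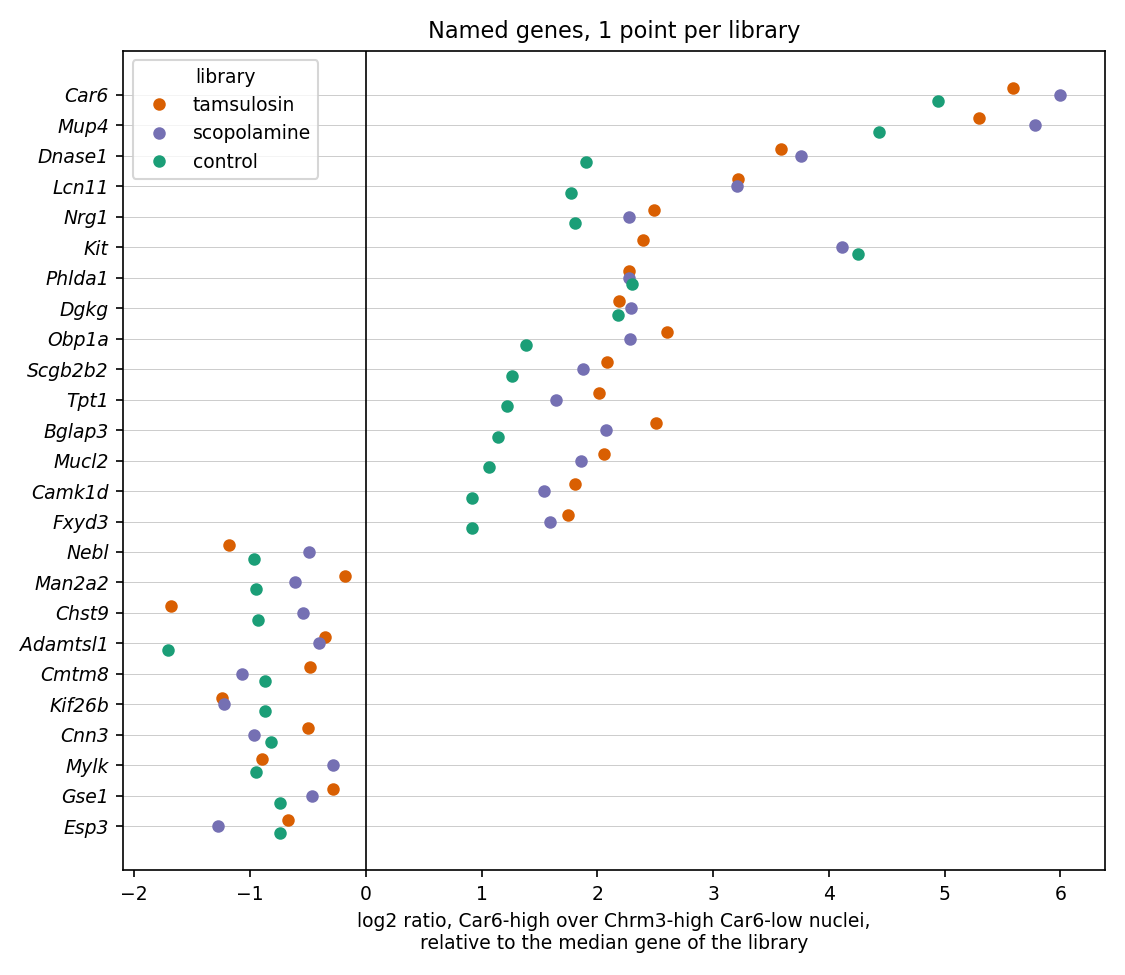
Log2 ratio of member over Chrm3-high Car6-low level (x axis, pseudocount 10 CPM, relative to the median gene of that library) for the named genes (y axis), 1 point per library. Kit is separated most in control and scopolamine, and Dnase1, Lcn11 and Obp1a are separated most in tamsulosin and scopolamine.

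Against Chrm3-high Car6-low nuclei, log2 ratios (pseudocount 10 CPM) are given relative to the median gene, which lay at -0.91 in tamsulosin, -0.63 in scopolamine and -0.15 in control. Of the 2463 genes with a mean of at least 50 CPM in every library, 39 lay 2-fold or more above it in members in all 3 libraries (1.58%), and 0 that far below it (0%). After thinning these counts were 16 and 4, and against all other kept barcodes 19 were higher. Per library, 220 of 2698 genes were higher in tamsulosin (8.15%), 130 of 2870 in scopolamine (4.53%) and 66 of 3479 in control (1.9%), and 14 (0.519%), 22 (0.767%) and 6 (0.172%) were lower. The genes highest in all libraries after Car6 and Mup4 were secreted proteins and signalling genes. Dnase1 was at 1571, 1451 and 1348 CPM in members, against 237, 157 and 392 CPM, and its member level in tamsulosin over control, close in CPM, was higher by a log2 ratio of 1.30 relative to the median gene. Lcn11, a lipocalin, was at 1597, 1131 and 324 CPM, against 316, 181 and 98.3 CPM. Phlda1, a pleckstrin homology-like domain gene, was at 207, 215 and 515 CPM, against 74.4, 61.9 and 109 CPM. Dgkg, a diacylglycerol kinase that removes a second messenger of calcium-coupled receptors, was at 103, 158 and 197 CPM, against 36.7, 43.3 and 40.6 CPM. The relative log2 ratios of Phlda1 (2.28, 2.28 and 2.30) and Dgkg (2.19, 2.29 and 2.18) were nearly equal across libraries. Obp1a, an odorant-binding lipocalin, was at 140997, 122517 and 31009 CPM, against 43760, 39191 and 13152 CPM, and was the most abundant transcript of tamsulosin and scopolamine members.

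Scgb2b2, Mucl2, Bglap3, Tpt1, Camk1d and Fxyd3 completed the highest 15, with relative log2 ratios in control, the lowest of the 3 libraries for each, of 0.92 for Fxyd3 and Camk1d up to 1.26 for Scgb2b2. Tpt1 encodes a translationally controlled protein, Fxyd3 a small membrane protein of the FXYD family and Camk1d a calmodulin-dependent kinase. Camk1d was at 369, 418 and 1440 CPM in members, against 193, 219 and 841 CPM in Chrm3-high Car6-low nuclei, and at 643, 481 and 1097 CPM in macrophage-type barcodes. The 10 lowest genes were Nebl, Man2a2, Chst9, Adamtsl1, Cmtm8, Kif26b, Cnn3, Mylk, Gse1 and Esp3. Chst9, a sulfotransferase, was at 137, 174 and 121 CPM, against 876, 405 and 267 CPM, and Kif26b, a kinesin, at 43.6, 24.2 and 50.7 CPM, against 228, 114 and 113 CPM. Mylk, a myosin light chain kinase, was at 71.7, 64.6 and 41.7 CPM, against 276, 131 and 101 CPM. None of these reached 2-fold below the median gene in all libraries.

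Of 5 lipocalins measured, 5 passed 2-fold above Chrm3-high Car6-low nuclei in tamsulosin (median relative log2 ratio 2.60), 5 in scopolamine (2.28) and 4 in control (1.47): Mup4, Mup6, Obp1a and Lcn11 in each, and Obp1b in tamsulosin and scopolamine. Over all genes measured, 8.15% were higher in tamsulosin, 4.53% in scopolamine and 1.9% in control. Counts of Mup and Obp genes are uncertain because near-identical copies can share reads. Of the tear and secretory proteins, 12 of 16 were higher in tamsulosin, 8 of 15 in scopolamine and 2 of 16 (Mucl2 and Scgb2b2) in control. The list summed to 311938, 260539 and 66995 CPM in members. It summed to 149807, 120347 and 40641 CPM in Chrm3-high Car6-low nuclei, but to 243682, 192845 and 45812 CPM in all other kept barcodes. All mitochondrially encoded transcripts measured were higher: 12 of 12, 9 of 9 and 10 of 10. They summed to 11821, 5235 and 4014 CPM in members, against 8833, 3314 and 2303 CPM in all other kept barcodes. Both differences were smaller against all other kept barcodes. Of the Kit pathway genes, only Kit was higher, among 10, 10 and 9 measured, with none lower. Kitl, the ligand, was at 40.0, 67.4 and 23.2 CPM in members, against 64.6, 107 and 65.4 CPM.

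Among ERBB ligands and receptors, Nrg1 was higher in each library and Nrg2 in scopolamine and control, out of 7, 8 and 7 measured. Nrg2 was at 263, 320 and 355 CPM in members, against 437, 159 and 120 CPM. Erbb4, a receptor for these ligands, was at 438, 996 and 1680 CPM in members, against 1242, 2068 and 1942 CPM. Its plain level was thus lower in members of each library, but relative to the median gene it passed 2-fold in no library. Of the gland transcription factors, Bhlha15, a regulator of secretory cell structure, was higher in tamsulosin (1 of 12), Barx2 in scopolamine (1 of 10), and Etv1 and Barx2 in control (2 of 15). Over all genes measured, 8.15, 4.53 and 1.9% were higher, so 1 of 12 lies near the tamsulosin share. Barx2, a homeobox factor of gland development, was at 195, 237 and 314 CPM in members, against 291, 90.9 and 71.4 CPM, so its level in tamsulosin members was below that of the comparison nuclei, with a relative log2 ratio of 0.35. Of the water and ion transport genes, 3 of 9 were higher in tamsulosin (Aqp5, Kcnn4 and Fxyd3), 2 of 8 in scopolamine (Kcnn4 and Fxyd3) and 1 of 7 in control (Kcnn4). Kcnn4, a calcium-activated potassium channel of secretory cells, was higher in each library, at 155, 193 and 308 CPM, against 110, 80.7 and 22 CPM. Of the secretory receptors and calcium release genes, Adra1a was lower in scopolamine (1 of 7), beside 0.767% lower over all genes measured there. None was higher or lower in tamsulosin or control (7 and 7 measured). Adrb1, a receptor of this list, fell under the limit of 50 CPM and was not counted in control. It was at 45.9 CPM (77 UMIs) in control members, against 3.71 CPM, a ratio of 12.4 (9.04 to 16.9). Of the laminins and basement membrane genes 2 were measured in each library, and none passed 2-fold. In control these were Itga6 and Dag1, so no laminin chain was counted there. Lama1 lay below the level limit in control, with a relative log2 ratio of 2.30. Of the regulated exocytosis genes, 3, 4 and 5 were measured, and none passed 2-fold.

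**Figure D4:**
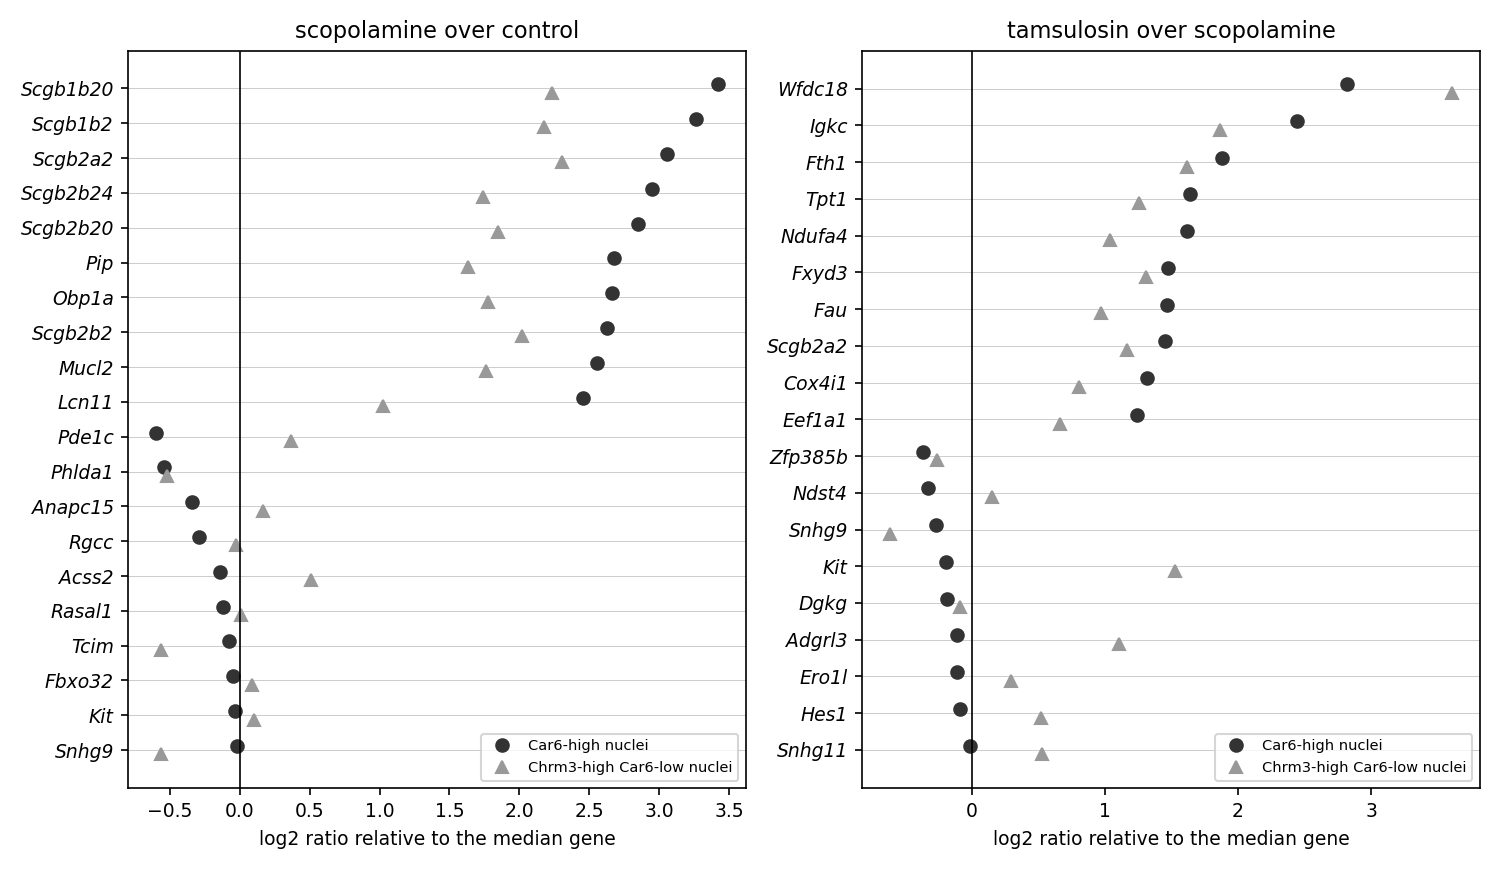
Log2 ratio between libraries (x axis, pseudocount 10 CPM, relative to the median gene) for the named genes (y axis), scopolamine over control on the left and tamsulosin over scopolamine on the right, in Car6-high nuclei (circles) and Chrm3-high Car6-low nuclei (triangles). The 10 upper genes of each panel lie right of 0 in both populations; in the right panel Kit lies at -0.19 in Car6-high nuclei and at 1.53 in Chrm3-high Car6-low nuclei.

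Between scopolamine and control members, the median gene lay at a log2 ratio of -0.68, beside -0.20 in Chrm3-high Car6-low nuclei, so a few very abundant transcripts took a larger part of the scopolamine total and ratios are given relative to that median. Of 2905 genes, 118 lay 2-fold or more above it (4.06%) and 29 that far below it (0.998%); with Chrm3-high Car6-low nuclei, 65 of 3445 were higher (1.89%) and 30 lower (0.871%). With every gene of at least 1 UMI counted, 112 were higher and 479 lower in members, so the balance of directions depends on the level limit. The 10 highest named genes encode secreted proteins: the secretoglobins Scgb1b20, Scgb1b2, Scgb2a2, Scgb2b24, Scgb2b20 and Scgb2b2, and Pip, Obp1a, Mucl2 and Lcn11. Scgb1b20 was at 536 CPM in scopolamine members and 72.1 CPM in control members, a ratio of 7.44 (6.15 to 9.07) and a relative log2 ratio of 3.42, beside 2.24 in Chrm3-high Car6-low nuclei. Obp1a was at 122517 CPM in scopolamine members and 31009 CPM in control members, with relative log2 ratios of 2.67 in members and 1.78 in Chrm3-high Car6-low nuclei. Lcn11 had a relative log2 ratio of 2.46 in members and 1.02 in Chrm3-high Car6-low nuclei. Mup4 was at 4560 CPM in scopolamine members and 1855 CPM in control members, with relative log2 ratios of 1.98 in members and 0.63 in Chrm3-high Car6-low nuclei. The same transcripts were found in macrophage-type barcodes, so the larger ratios in members are values of these libraries and were not tested. Copies of secretoglobin genes are similar in sequence, so single copies are uncertain.

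The named genes with the lowest ratios between scopolamine and control members did not pass 2-fold relative to the median. They were Pde1c, Phlda1, Anapc15, Rgcc, Acss2, Rasal1, Tcim, Fbxo32, Kit and Snhg9, with relative log2 ratios of -0.60 to -0.02. The 29 genes past 2-fold below the median were not named by this rule, which asks for a level above the other kept barcodes and macrophage-type barcodes, or leaves out unnamed gene models. Pde1c, a phosphodiesterase of cyclic nucleotides, was at 36.5 CPM in scopolamine members and 103 CPM in control members, against 30.7 and 26.3 CPM in Chrm3-high Car6-low nuclei. Phlda1 was at 215 CPM in scopolamine members and 515 CPM in control members, with relative log2 ratios of -0.54 in members and -0.52 in Chrm3-high Car6-low nuclei. Kit was at 504 CPM in scopolamine members and 837 CPM in control members, a plain ratio of 0.603 (0.554 to 0.656), but its relative log2 ratio was -0.03, next to the median gene. Kit was thus lower in CPM in scopolamine and near the median gene, on either side of it under the alternatives tried. Lama1, measured at 34 and 135 UMIs and just under the mean of 50 CPM, had a plain ratio of 0.237 (0.158 to 0.348) and a relative log2 ratio of -0.95.

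Other members of the gene lists are given next, beside 4.06% higher and 0.998% lower over all genes measured. Adra1a, the alpha-1A adrenergic receptor, was at 42.1 CPM in scopolamine members and 180 CPM in control members, a relative log2 ratio of -1.19, beside -0.43 in Chrm3-high Car6-low nuclei; it was the only receptor or calcium release gene of 7 past 2-fold. Macrophage-type barcodes held 229 CPM of Adra1a in scopolamine and 297 CPM in control, above the members. Of the tear and secretory proteins 11 of 16 were higher and Pnliprp1, a pancreatic lipase-related gene, was lower, at 34.8 CPM in scopolamine members and 651 CPM in control members. In Chrm3-high Car6-low nuclei 12 of 16 were higher, and Lpo and Pnliprp1 were lower, beside 1.89% higher and 0.871% lower over all genes measured there. Of the lipocalins 4 of 5 were higher in members and 2 of 5 in Chrm3-high Car6-low nuclei. Of the circadian clock genes, 2 of 7 were higher (Arntl and Npas2) and 2 were lower (Per3 and Nr1d2). Npas2 was at 96.1 CPM in scopolamine members and 5.36 CPM in control members, and at 58.7 and 10.4 CPM in Chrm3-high Car6-low nuclei. Nr1d2, a repressor in the clock loop, was at 57.9 CPM in scopolamine members and 296 CPM in control members, with relative log2 ratios of -1.49 in members and -1.43 in Chrm3-high Car6-low nuclei. The time of day of collection is not given in the sources used here. Phyh, a peroxisomal enzyme of phytanic acid breakdown, was the only lipid metabolism gene of 6 past 2-fold, at 289 CPM in scopolamine members and 2041 CPM in control members. In Chrm3-high Car6-low nuclei Phyh was likewise lower and the only gene of 6 past 2-fold. Of the Kit pathway, ERBB, exocytosis and laminin lists, 0 of 9, 0 of 7, 0 of 4 and 0 of 2 passed 2-fold. Lama1, under the level limit, was not among the laminin list genes counted.

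Between tamsulosin and scopolamine members, the median gene lay at -0.39, beside -0.11 in Chrm3-high Car6-low nuclei. Of 2192 genes, 139 lay 2-fold or more above it (6.34%) and 0 that far below it (0%), while 131 of 3276 (4%) and 5 (0.153%) passed these limits in Chrm3-high Car6-low nuclei. This comparison shares its scopolamine library with the one before. The highest named genes were Wfdc18, Igkc, Fth1, Tpt1, Ndufa4, Fxyd3, Fau, Scgb2a2, Cox4i1 and Eef1a1. Wfdc18, a secreted protein with a whey acidic protein domain, was at 4329 CPM in tamsulosin members and 793 CPM in scopolamine members, a ratio of 5.46 (5.17 to 5.77). Its relative log2 ratio was 2.82 in members and 3.61 in Chrm3-high Car6-low nuclei, and macrophage-type barcodes held 1526 CPM in tamsulosin and 140 CPM in scopolamine. Igkc, the kappa light chain of antibodies made by plasma cells, was at 132 CPM in tamsulosin members and 24.2 CPM in scopolamine members, against 56.3 and 13.9 CPM in macrophage-type barcodes. Jchain, another plasma cell transcript, was at 48.4 CPM in tamsulosin members and 11.2 CPM in scopolamine members. Igkc and Jchain made up most of the B or plasma cell list, which summed to 196 CPM in tamsulosin members and 35.4 CPM in scopolamine members, and the part of plasma cell RNA in the Igkc value was not tested. Fth1 (ferritin), Ndufa4 and Cox4i1 (respiratory chain), and Fau and Eef1a1 (ribosome and translation) are housekeeping transcripts of most cells. Of the mitochondrially encoded transcripts 12 of 12 were higher, with a median relative log2 ratio of 1.46, and 11 of 11 were higher in Chrm3-high Car6-low nuclei.

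Of the named lower genes 9 qualified, and none passed 2-fold: Zfp385b, Ndst4, Snhg9, Kit, Dgkg, Adgrl3, Ero1l, Hes1 and Snhg11, with relative log2 ratios of -0.37 to -0.01. Zfp385b was at 43.6 CPM in tamsulosin members and 80.3 CPM in scopolamine members, and Ndst4 at 63.8 and 111 CPM. Kit was at 335 CPM in tamsulosin members and 504 CPM in scopolamine members, with a relative log2 ratio of -0.19 in members and 1.53 in Chrm3-high Car6-low nuclei, where it was at 114 CPM in tamsulosin and 36.2 CPM in scopolamine. The member value lay near 0 and its sign depends on the rule: it was -0.04 with Car6 at 0.6%, -0.01 with a Kit UMI required and 0.16 with Car6 at 10 times the macrophage-type level. Adgrl3, an adhesion receptor, was at 387 CPM in tamsulosin members and 551 CPM in scopolamine members, with relative log2 ratios of -0.11 in members and 1.11 in Chrm3-high Car6-low nuclei. Among the water and ion transport genes, Slc12a2, a chloride uptake cotransporter, was at 424 CPM in tamsulosin members and 203 CPM in scopolamine members, and Fxyd3 at 288 CPM in tamsulosin members and 130 CPM in scopolamine members. In Chrm3-high Car6-low nuclei Slc12a2 was at 748 CPM in tamsulosin and 166 CPM in scopolamine. Of the tear and secretory proteins 6 of 16 were higher, beside 6.34% of all genes measured. Among them was Ltf (lactoferrin), at 2735 CPM in tamsulosin members and 439 CPM in scopolamine members. In Chrm3-high Car6-low nuclei 5 of 16 were higher, Ltf among them, beside 4% of all genes measured there. Among barcodes of at least 1700 UMIs with Car6 below 0.1%, Ltf was at 3770 CPM in tamsulosin and 400 CPM in scopolamine. The Ltf difference was therefore not particular to members. Clock, Kit pathway, ERBB, exocytosis, receptor and transcription factor lists held 0 genes past 2-fold among 6, 8, 7, 3, 6 and 13 measured.

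Between tamsulosin and control members, the median gene lay at -1.08, with 263 of 2766 genes 2-fold or more above it (9.51%) and 32 that far below it (1.16%); in Chrm3-high Car6-low nuclei 254 of 3459 were higher (7.34%) and 54 lower (1.56%). With every gene of at least 1 UMI counted, 284 were higher and 1637 lower in members. Adra1a, at 39.2 CPM in tamsulosin members and 180 CPM in control members, had a relative log2 ratio of -0.88. Lama1 had a plain ratio of 0.229 (0.168 to 0.308) and a relative log2 ratio of -0.59. Of the unfolded protein response genes, 5 of 11 were higher relative to the median gene (Hspa5, Hsp90b1, Dnajc3, Pdia6 and Calr), with a list median of 0.24. In plain CPM the whole list summed lower in tamsulosin members (2044 CPM) than in control members (3014 CPM). In Chrm3-high Car6-low nuclei Calr alone was higher relative to the median gene. Calr, a calcium-binding chaperone of the endoplasmic reticulum, was at 147 CPM in tamsulosin members and 69.7 CPM in control members. Of the clock genes 2 of 5 were lower, Nr1d2 and Tef, a clock output factor at 46.5 CPM in tamsulosin members and 276 CPM in control members.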

How the data were processed

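Single-nucleus libraries of mouse lacrimal gland, 1 each for tamsulosin, scopolamine and control, were analysed. Unnormalized counts of UMIs for 32285 genes in each barcode were deposited by the authors, made with Cell Ranger 5.0.0 on mm10, per the submitters' processing notes; intron counting and further filters are not given in the sources used here. The gene and barcode lists carry no measured values. Total counts over deposited barcodes were 57969348 in tamsulosin, 35237256 in scopolamine and 33500727 in control, with lowest totals per barcode of 1534, 967 and 1492. Droplets below these were not analysed here. The level of acinar transcripts in other barcodes was therefore read from macrophage-type barcodes, in which free RNA and doublets were not separated.

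Members were picked as the report states. Doublets were kept, since the rule has no doublet step: Scrublet (scanpy 1.11.5, expected rate 0.06) called 4, 0 and 0 barcodes, too few to have worked, and removing the highest scores at 0.8% per 1000 barcodes was an alternative. UMIs were summed per population and library and scaled to CPM. Log2 ratios used a pseudocount of 10 CPM and the median of all genes averaging 50 CPM or more over both sides was subtracted; 2-fold was the limit for counting a gene. Shares carry Clopper-Pearson intervals, levels exact Poisson intervals and ratios conditional binomial intervals, all at 95%. Nuclei were thinned to 1000 UMIs where shares of cells were compared; 21 scopolamine members were too shallow. No test between groups was possible with 1 library per group.

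Named genes were, per library contrast, the 10 highest and 10 lowest with at least 50 UMIs and a level in the higher library at or above all other kept barcodes and at least 2 times that of macrophage-type barcodes. Against Chrm3-high Car6-low nuclei they were the 15 highest by the smallest and the 10 lowest by the largest of the 3 ratios. Unnamed gene models, ribosomal, mitochondrial and haemoglobin genes were left out. Members, markers and gene lists were chosen with earlier results of these data known. The scripts were checked on simulated counts. The count of water and ion transport genes past 2-fold between libraries is not reported here. Software was Python 3.11.15, numpy 2.4.6, scipy 1.17.1, pandas 2.3.3 and matplotlib 3.10.9.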

Additional observations from a re-analysis of the deposited data

Results flagged for a closer look

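Some barcodes with at least 5 Car6 UMIs and 0.3% Car6 were left out of the members because the salivary transcripts Bpifa2, Smr3a, Amy1 and Cst10 reached 0.5% of their UMIs. There were 106 of these in tamsulosin, or 0.882% (0.723 to 1.07) of kept barcodes, 0 in scopolamine, which allows up to 0.0369%, and 7 in control, or 0.0973% (0.0391 to 0.2). They came up because their number in tamsulosin lies above the control number in data the comparisons do not use. In tamsulosin their median salivary share was 9.14%, with Bpifa2 at 93719 CPM, Smr3a at 50841 CPM and Amy1 at 43204 CPM, and in control it was 9.27%. Their Car6 level was 9575 CPM in tamsulosin and 5521 CPM in control, and their Kit level 125 CPM and 71.7 CPM, lower than among the members of the same library. Among tamsulosin members the 6 salivary markers still summed to 702 CPM, against 12.9 CPM in scopolamine members and 152 CPM in control members, within the limit the rule sets. Carbonic anhydrase VI is also a salivary protein, and whether salivary gland tissue in a sample contributed to these barcodes was not tested.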

How the results depend on the processing

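No paired analysis was possible because each group has 1 library and no comparison carries a replicate. The share of members, in tamsulosin, scopolamine and control, was 14.1, 7.67 and 9.13% with Car6 at 0.2%, 4.23, 3.95 and 4.16% with Car6 at 0.6%, 8.88, 7.22 and 8.48% among barcodes of at least 1700 UMIs, and 3.95, 3.11 and 5% with a Kit UMI required. The tamsulosin share was 8.82% with at most 1% mitochondrial UMIs and 8.95% with the salivary sum below 0.2%. After seeing the data 2 alternatives were added: Car6 at 10 times the macrophage-type level gave 5.35, 6.86 and 6.53%, and at least 350 genes at 1000 UMIs gave 7.74% in tamsulosin.

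Between scopolamine and control, a mean of at least 200 CPM left 38 genes higher and 9 lower, leaving the 50 most abundant genes out gave 207 higher and 44 lower, and no filter gave 112 higher and 479 lower, so that 19.0% of genes past 2-fold were higher, against 80.3% with the filter. Between tamsulosin and scopolamine, genes lower numbered 12 with no filter, 6 with a Kit UMI required, 2 at 10 times the macrophage-type level, and 1 each at 1700 UMIs, at 1% mitochondrial UMIs and without the 50 most abundant genes; genes higher numbered 37 at 200 CPM and 228 without those 50. Between tamsulosin and control, 71 were higher and 10 lower at 200 CPM, 450 and 57 without the 50 most abundant genes, and 284 and 1637 with no filter; 49 were lower with a Kit UMI required and 50 with at least 350 genes. Against Chrm3-high Car6-low nuclei, 16 genes were higher and 4 lower in all libraries after thinning, 25 were higher with at least 350 genes, and 19 were higher when all other kept barcodes were the comparison. The causes were not tested, except that stricter level limits leave fewer genes to count.

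Of 714 values of named genes under these alternatives, 548 stayed within the counting interval of the reported ratio, or within 0.25 log2 for ratios against Chrm3-high Car6-low nuclei, and 166 did not. None of those past 2-fold changed sign, while 36 values of ratios no further than 0.33 from 0 crossed it, Kit in tamsulosin over scopolamine among them. Kit in CPM was lowest in tamsulosin and highest in control in each of the 10 member rules tried. The median gene moved in the same order. Under the reported rule its log2 ratio was -0.68 in scopolamine over control and -0.39 in tamsulosin over scopolamine. Kit lay near the median gene in both. With 1 library per group, animal, day and library cannot be told apart from the group.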
